A study of Mus musculus with 10 samples.

Results

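Long noncoding RNAs (lncRNAs) are long transcripts that act without being translated, and 8 of them with roles described elsewhere were followed here in mouse embryonic stem cells. They were Malat1, Neat1, Tug1, Miat, Firre, Oip5os1 (also called Cyrano), Lncenc1 and Tunar. The genes were chosen by name, and the Ensembl gene of each symbol was found among the 55487 genes of the deposited RNA-seq tables. All 8 were present. Oip5os1 is listed under its older name 1700020I14Rik in GENCODE release M21, the annotation used for names. That annotation classes Malat1, Neat1, Miat, Oip5os1 and Lncenc1 as lincRNA genes, Tug1 as antisense, Firre as a processed transcript and Tunar as protein coding, so the label of lncRNA does not hold for Tunar in that annotation.

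The series holds 10 samples of E14, a mouse embryonic stem cell line, in 6 groups. R-loops, in which an RNA strand pairs with DNA, were mapped by MapR and BisMapR in 7 samples that were not analysed here. RNA-seq was made from 3 replicates of E14 with no genetic change or further treatment named, so no condition was compared. Per the labels' protocols, cells were kept with 15% fetal bovine serum, LIF, 3 µM of a GSK inhibitor and 1 µM of a MEK1/2 inhibitor. Nothing in the labels says that the replicates came from separate cultures, so the spread between them may be technical.

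Replicates 1, 2 and 3 summed to 11420425, 6467405 and 5787357 estimated counts. In CPM (counts scaled to a common library total), a floor of 3 counts equals 0.263, 0.464 and 0.518. All 8 pluripotent stem cell markers listed had a mean of at least 1 TPM (a level scaled by transcript length and then to a common total), from 16.6 to 331. Their summed TPM was 1060, 837 and 689. Of 6 fibroblast or feeder markers only Thy1 passed 1 TPM, Col3a1, Dcn and Lum had no counts, and the list summed to between 1.24 and 3.37 TPM. Among 6 neuronal markers only Tubb3 did (11.6 TPM), among 4 trophoblast markers only Tfap2c (4.08 TPM), and among 5 primitive endoderm markers none. Genes with an effective length under 100 nt held 60.3%, 65.8% and 63.9% of all TPM, which lowers the TPM of every other gene.

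These RNAs work in different places. Malat1 lies in nuclear speckles, bodies rich in splicing factors, and Neat1 is the scaffold on which paraspeckles form. Firre is an X-linked nuclear RNA with a repeated domain that binds the protein Hnrnpu, and Miat is a nuclear RNA known from neurons. Oip5os1 carries a site for the microRNA miR-7 and is known for causing the loss of that microRNA. Tug1 is known from retina and from work on Polycomb proteins, while Lncenc1 and Tunar have been described in the pluripotent state.

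The level of the 8 RNAs spanned several orders of magnitude. Malat1 led with a mean of 325 ± 97.8 TPM (SD, n = 3), followed by Lncenc1 with 100.4 ± 25.7 TPM. Tug1 had 22.5 ± 6.61, Firre 10.9 ± 2.42, Neat1 10.4 ± 4.13 and Oip5os1 6.22 ± 1.57 TPM. Tunar was below 1 TPM at 0.603 ± 0.179, and Miat was at or near the counting floor. Of the 8 genes, 6 reached a mean of 1 TPM, against 19.8% of all genes and 2.26% of the 5614 lincRNA genes. The members were chosen with earlier results of these data known, so this contrast is a description only. Of the lincRNA genes, 4327 had no counts at all.

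**Figure D1:**
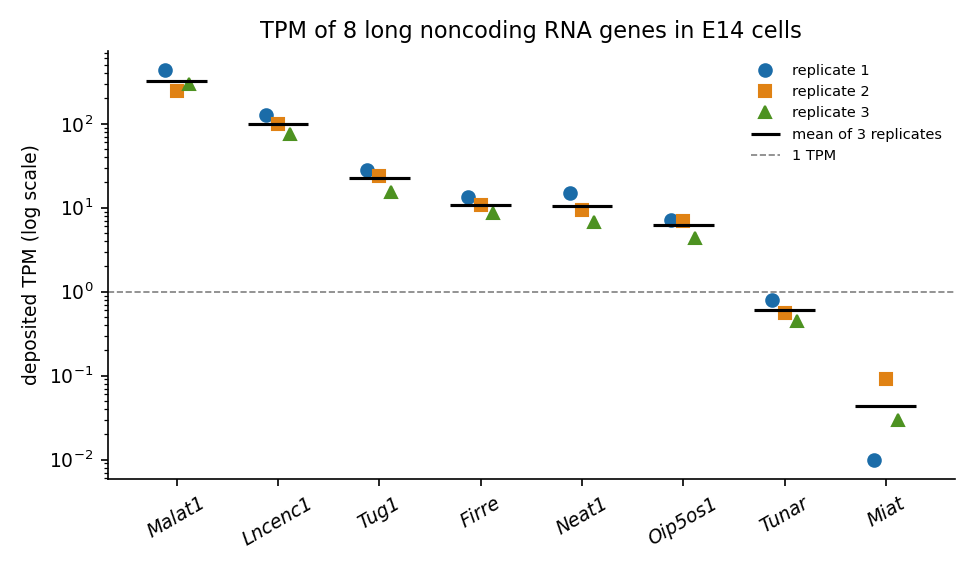
Deposited TPM (log axis) of the 8 genes in each of the 3 RNA-seq replicates, ordered by mean, with the mean as a black bar and 1 TPM as a dashed line. Malat1 and Lncenc1 stand above the other genes in every replicate, the points of Neat1 overlap those of Firre and Oip5os1, and Tunar and Miat lie below 1 TPM.

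In the order of TPM, the ranges of the 3 replicates did not overlap between Malat1 and Lncenc1, Lncenc1 and Tug1, Tug1 and Firre, or Oip5os1 and Tunar. Malat1 exceeded Lncenc1 by 1.69 ± 0.34 on the log2 TPM scale, and Lncenc1 exceeded Tug1 by 2.17 ± 0.12. Firre and Neat1 differed by 0.12 ± 0.25, with Firre higher in 2 of 3 replicates, so that their order is not set by these data. Neat1 exceeded Oip5os1 in all 3 replicates by 0.70 ± 0.31, although their ranges overlapped. Of the 28 pairs that 8 genes form, 27 had the same order in every replicate.

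Malat1 and Neat1 are neighbours on mouse chromosome 19, both on the minus strand. Malat1 (ENSMUSG00000092341) spans chr19:5795690-5802672 and Neat1 (ENSMUSG00000092274) chr19:5824708-5845478 in GRCm38. Each has 4 annotated isoforms, of which the longest is a single exon, of 6983 nt in Malat1 and 20771 nt in Neat1. Both long RNAs are known to end without a poly(A) tail, where the enzyme RNase P cuts off a small tRNA-like RNA. A triple helix of U-rich and A-rich stretches protects the new end. Whether the libraries were selected for poly(A) tails is not covered here, and how this bears on the levels below was not tested. The last 60 bases before each cut are printed because the genes share them in part, with 2 shared stretches in capitals. The capitals mark shared words and need not cover the whole helix. The A-rich stretch (AAAAAGCAAAA) is the 11 bases that both ends have last, and the U-rich stretch (TTTTGCTTTT) is the last 10 bases of the longest other word they share, of 16 bases. They are taken from the genome, as transcribed 5′ to 3′, and the small RNA that follows each is given in lower case.
Malat1 end, chr19:5795982-5796041, minus strand: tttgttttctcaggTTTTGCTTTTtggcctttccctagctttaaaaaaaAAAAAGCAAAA
mascRNA after Malat1, chr19:5795924-5795981, minus strand: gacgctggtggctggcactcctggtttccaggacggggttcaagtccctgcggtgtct
Neat1 end, chr19:5824708-5824767, minus strand: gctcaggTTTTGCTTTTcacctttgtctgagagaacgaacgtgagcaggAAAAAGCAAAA
Gm27702 after Neat1, chr19:5824652-5824707, minus strand: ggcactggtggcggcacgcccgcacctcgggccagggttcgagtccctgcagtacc

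The pair of motifs was searched on the transcribed strand, with TTTTGCTTTT followed by AAAAAGCAAAA within 60 bases. It was found in 4 of 141767 annotated transcripts (0.00282%), which belong to Malat1, Neat1 and Retreg3. As the words were taken from the ends of Malat1 and Neat1, finding them there was given. When all transcripts were tiled into 3935855 windows of 60 bases, 1 window held the pair. The windows do not overlap and miss a pair that crosses a border, so this is not a background rate. The mascRNA and Gm27702 agreed at 41 of 59 aligned columns (69.5%). Gm27702 starts directly after the last base of the long Neat1 isoform, and it had 0 counts in all 3 replicates. At 56 nt it has an effective length of 0, so that counts could not be assigned to it. The annotated Malat1 isoform runs 234 nt past the mascRNA.

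Malat1 took 40065, 20254 and 17983 estimated counts in replicates 1, 2 and 3, or 3508, 3132 and 3107 CPM. The 3 replicates were close on this scale, and the highest was 1.13 times the lowest. Its TPM was 434, 245 and 297, with the highest 1.77 times the lowest. Replicate 2 was thus the lowest in TPM but not in CPM. By CPM Malat1 ranked 17 among all genes and 1 among lincRNA genes, and by TPM 196 and 2. It alone made up 48.7 ± 2.18% of the counts of all lincRNA genes (SD, n = 3). All 8 members together held 0.523%, 0.474% and 0.434% of each library's counts, a mean of 0.477 ± 0.0443%, of which Malat1 was 68.3 ± 2.91%.

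**Figure D2:**
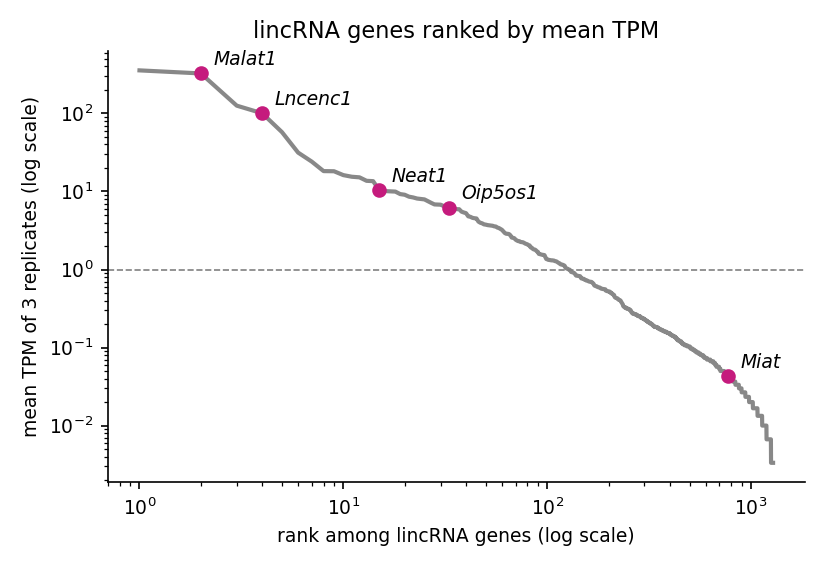
Mean TPM of the 3 replicates (log axis) against rank (log axis) for the 1283 lincRNA genes with a mean TPM above 0, with the 5 lincRNA members as points and 1 TPM dashed. Malat1 has rank 2, Lncenc1 4, Neat1 15, Oip5os1 33 and Miat 770.

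Neat1 took 5037, 2508 and 1270 estimated counts, or 441, 388 and 219 CPM. Replicate 3 was the lowest and lay well apart from the other two, and the highest CPM was 2.01 times the lowest. Its TPM was 14.9, 9.49 and 6.79, in the same order. Neat1 moved more than any other member that had over 1 TPM, on either scale. The small RNA gene Gm27505, annotated inside Neat1, was given 11.7, 3.38 and 1.24 counts by the estimator, which is little beside the counts of Neat1.

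The Malat1 to Neat1 ratio was 29.1, 25.8 and 43.7 in TPM, a log2 ratio of 5.002 ± 0.40. Replicates 1 and 2 were close, and replicate 3 was higher. In CPM, which leaves out the greater length of Neat1, the ratio was 7.95, 8.08 and 14.2. With counts divided by the longest annotated isoform of each gene it was 23.7, 24.0 and 42.1. Replicate 3 stood apart on all 3 scales, although the CPM ratio and the longest-isoform ratio differ only by a constant factor and so cannot disagree.

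The deposited tables give each gene a length that RSEM, the program whose output format they have, averages over isoforms weighted by their estimated abundance. Where isoform lengths differ, this length bounds the share of the longest isoform. The bounds come from the unknown mix of the shorter isoforms and hold no error of the estimate itself. For Malat1 the length was 3541, 4502 and 3324 nt. By this estimate the isoform of 6983 nt made up between 45.6 and 47.0% of Malat1 molecules in replicate 1. It was 60.8 to 61.8% in replicate 2 and 42.2 to 43.7% in replicate 3. The remainder was assigned to isoforms of 485 to 656 nt. These lie within the span of the long isoform, so how reads are divided between them is an estimate. Replicate 2, with the highest share of the long isoform, is the replicate in which TPM was lowest while CPM was close to that of replicate 3.

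For Neat1, the isoform of 20771 nt is the kind that builds paraspeckles, whereas the isoform of 3004 nt ends earlier at a polyadenylation signal. The signal AATAAA near the end of that isoform is shown in capitals.
Neat1 shorter isoform end, chr19:5842307-5842336, minus strand: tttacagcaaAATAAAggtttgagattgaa
AATAAA on the transcribed strand is found in the last 30 bases of 23.3% of all annotated transcripts, and not in those of the long Neat1 isoform. It is found in those of the annotated Malat1 isoform of 6983 nt, which runs past the mascRNA. The isoform-weighted length of Neat1 was 12607, 14056 and 9984 nt, a mean of 12216 ± 2064 nt (SD, n = 3). The long isoform then made up 54.0 to 59.3% of Neat1 molecules in replicate 1, 62.2 to 66.5% in replicate 2 and 39.3 to 46.2% in replicate 3. These ranges did not overlap, and replicate 3 had the lowest share as well as the lowest level. Because the short isoform lies within the first part of the long isoform, how reads are divided between them is an estimate. How fully the libraries sampled RNAs without a poly(A) tail, which may bear on this share, was not tested.

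**Figure D3:**
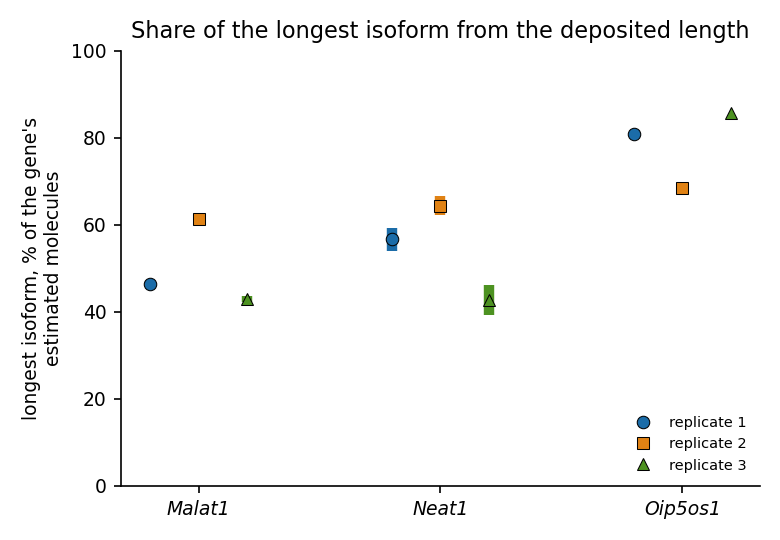
Share of the longest annotated isoform among the estimated molecules of Malat1, Neat1 and Oip5os1 (percent) in each replicate, with the bar spanning the range allowed by the deposited gene length and the symbol at its middle. Replicate 2 is highest for Malat1 and Neat1 and lowest for Oip5os1.

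To see how far the length estimate moves the levels, TPM was rescaled to the longest annotated isoform of each gene, a step added after the values were seen. Malat1 then had 216, 156 and 138 TPM, a mean of 170.1 ± 40.6, and the deposited mean was 1.91 times that. Neat1 had 9.005, 6.40 and 3.24 TPM, a mean of 6.22 ± 2.89. Firre had 6.21 ± 1.75, level with Neat1, and Lncenc1 92.7 ± 23.9. In CPM, which is not scaled by length and so is higher for longer RNAs, Neat1 had the third highest mean at 349 ± 116. Its CPM range overlapped that of Tug1.

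Genes of proteins that share the bodies of these RNAs were expressed. All 14 paraspeckle proteins listed reached 1 TPM, with a median of 31.7, as did 44.2% of all protein-coding genes, with a median of 5.73 among those that did. Hnrnpk was the highest at 387 ± 71.4 TPM and Pspc1 the lowest at 4.82 ± 1.47. Of the core paraspeckle proteins, Sfpq had 43.2, 36.2 and 19.7 TPM, with replicate 3 lowest, and Nono 110.8, 74.2 and 119.9 TPM, with replicate 3 highest. Replicate 3 was the lowest in TPM for 12 of the 14, against 81% of the 8300 genes with 100 counts or more on average. All 10 genes listed for nuclear speckles and for Malat1 binding or end processing reached 1 TPM. Their median was 25.8, from 7.96 for Mettl3, a methyltransferase that marks RNA, to 80.4 for the splicing factor Srsf3. Elac2, which trims the mascRNA, had 9.93 ± 3.15 TPM and Mettl16, which binds the Malat1 triple helix, 7.997 ± 1.18.

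Oip5os1 (ENSMUSG00000085438) spans chr2:119594297-119607502 on the plus strand and has an isoform of 8300 nt and a shorter one of 1381 nt. The site for miR-7 is the feature it is known for, and it is printed with the microRNAs, whose mature sequences are from RefSeq (GRCm38). In the microRNAs the seed (bases 2 to 8) is in capitals, and in the site the bases that pair with miR-7a-5p are.
mmu-miR-7a-5p: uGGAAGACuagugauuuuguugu
mmu-miR-7b-5p: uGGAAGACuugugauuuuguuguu
Oip5os1 site, chr2:119602137-119602161, plus strand: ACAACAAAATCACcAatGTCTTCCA

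The miR-7a and miR-7b seeds are the same. The site pairs 22 of the 23 bases of miR-7a-5p and lies in exon 3 of 3 of the long isoform, at its bases 2935 to 2959. It is 3 edits (changed, added or missing bases) from the full complement of miR-7a-5p. Only 6 of 141767 transcripts came within 3 edits, and Oip5os1 was the only such lincRNA transcript among 9101. Of the 6, 2 also hold a match to the seed. A match to the 7 seed bases alone is common, in 13.8% of transcripts and 8.99% of windows of 1000 nt. The short Oip5os1 isoform lacks the site, and its nearest stretch was 7 edits from the complement.

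Oip5os1 had 1340, 795 and 601 estimated counts, or 117, 123 and 104 CPM, and its highest CPM was 1.18 times its lowest. Its TPM was 7.23, 7.02 and 4.41, lower in replicate 3 than in the other replicates. With 2 isoforms, the share of the long isoform follows directly from the deposited length. The isoform with the site made up 80.8%, 68.3% and 85.8% of the estimated Oip5os1 molecules in replicates 1, 2 and 3, so it was the larger part in each. The microRNA genes Mir7-1, Mir7-2 and Mir7b had 0 counts in every replicate, but libraries of this kind are not made to hold mature microRNAs. Cdr1, annotated as protein coding, also had 0 counts in every replicate, and Cdr1os was not found by name. Zswim8, part of the ligase by which microRNAs are degraded at such sites, had 4.39 ± 1.68 TPM. Hnrnpk, the gene that hosts Mir7-1, had 387 ± 71.4 TPM as given above. The gene beside Oip5os1 on the opposite strand, Oip5, lies 2009 bp away and had 10.5 ± 2.55 TPM, and Chp1 on the other side had 10.6 ± 2.29.

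Firre (ENSMUSG00000085396, chrX:50555744-50635321, minus strand) has 10 annotated isoforms of 490 to 5555 nt. The RNA is known for copies of a repeat, and a repeat unit was located by its most frequent word of 20 bases, shown in capitals. The unit is bases 305 to 459 of the isoform Firre-206, where it is joined from 2 exons.
Firre repeat unit, from chrX:50612847-50615511, minus strand, spliced: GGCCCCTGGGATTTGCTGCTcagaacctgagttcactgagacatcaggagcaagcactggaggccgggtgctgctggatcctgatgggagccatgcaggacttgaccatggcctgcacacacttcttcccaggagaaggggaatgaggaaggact
The word GGCCCCTGGGATTTGCTGCT occurs 10 times in Firre-206, and 4 of the 9 distances between copies were 154 to 156 nt. The unit of 155 nt is itself the first of these distances, so that match was given by the choice. It is present in 6 of the 10 Firre isoforms and, on the transcribed strand, in no transcript of another gene. Of Firre-206, 45.4% lies in words of 20 bases that recur within it, a share reached by 12 of 4230 noncoding transcripts of at least 2000 nt (0.284%). The median of those transcripts is 0. Lncenc1 followed among the members with 17.2%, and the long isoforms of Malat1, Neat1, Miat, Oip5os1 and Tug1 had less than 3%.

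Firre had 1183, 617 and 470 estimated counts, or 103.6, 95.4 and 81.2 CPM. Its TPM was 13.4, 10.8 and 8.55, with replicate 1 highest and replicate 3 lowest on both scales. With 10 isoforms the deposited length of 3398, 3158 and 3030 nt does not fix which of them were present. Its protein partner Hnrnpu was abundant, at 120 ± 27.8 TPM, and Ctcf, which binds DNA at the locus, had 13.3 ± 2.38. Of its nearest annotated genes, Gm14620 had 0 counts, and Stk26, 205725 bp away, had 46, 32 and 14 counts (0.45 ± 0.18 TPM).

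Lncenc1 (ENSMUSG00000078952, chr13:97434970-97497007, plus strand) was the second most abundant member. It had 8350, 4539 and 3473 estimated counts, or 731, 702 and 600.1 CPM. Its TPM was 126.8, 98.8 and 75.5, with replicate 3 lowest on both scales. Its length estimate was stable, at 2566, 2567 and 2555 nt, and the isoform of 492 nt made up between 7.10 and 9.19% of molecules over all replicates. Ptbp1 and Hnrnpk, proteins reported to bind Lncenc1, had 95.1 ± 18.8 and 387 ± 71.4 TPM. The lincRNA genes on its sides were low, with 0 counts for Gm33447 and 0.597 ± 0.492 TPM for Gm2379. By rank, Lncenc1 was 442 among all genes and 4 among lincRNA genes in TPM.

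Tug1 (ENSMUSG00000056579, chr11:3639785-3649673, minus strand) had 3647, 1892 and 1297 estimated counts, or 319, 293 and 224 CPM. Its TPM was 28.4, 23.7 and 15.3, and replicate 3 was lowest on both scales. Its start overlaps Morc2a on the opposite strand, a protein-coding gene with 10.4 ± 3.37 TPM. The libraries were directional, but the strand setting of the counting is not given in the sources used here, so reads in the overlap may not be separated. The small RNA gene Gm27517, inside Tug1 on the same strand, was given 143, 71.7 and 58.3 counts. The Polycomb genes Ezh2, Suz12 and Eed had means of 43.5 to 50.6 TPM.

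Tunar (ENSMUSG00000097929, chr12:105333870-105383932, plus strand) had 63, 32 and 27 counts, or 5.52, 4.95 and 4.67 CPM. Every replicate was above the floor, with the 95% Wilson interval of replicate 3 from 3.21 to 6.79 CPM. Its TPM of 0.80, 0.56 and 0.45 was below 1 in each replicate. The nearest gene on the left, Tcl1, 111076 bp away and a gene of the pluripotent state, had 26.7 ± 5.60 TPM, and the nearest on the right, Gm2721, had no counts. Ncl, a nucleolar protein reported to bind Tunar with Ptbp1 and Hnrnpk, had 78.5 ± 6.04 TPM.

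Miat (ENSMUSG00000097767, chr5:112213228-112229395, minus strand) had 3, 3 and 5 counts. With the floor at 3 counts, it was not distinguishable from the floor in any replicate. In replicate 3, with 5 counts, the 95% Wilson interval was 0.369 to 2.02 CPM, which covers counting error only. That interval includes the floor of 0.518 CPM. Its neighbours 1700028D13Rik and Cryba4 had no counts. Of the proteins reported to bind it, Qk had 42.3 ± 10.1 TPM and Sf1 34.4 ± 14.9, while Celf3, a neuronal splicing factor, had 2 counts in replicate 1 and none in the others.

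The starts of the genes differed in sequence. RefSeq's promoter table (GRCm38, 250 bases before to 50 after a start) held 7 of the 8 members. The median over all 32851 promoters is 7 CG pairs, with quartiles of 3 and 20. Tug1 (37 pairs) and Miat (25) lay above the upper quartile, as did 1 of 2 Tunar starts (30, against 11 at the other). Malat1 had 10 pairs, Firre 12, Oip5os1 15 and Lncenc1 4. Miat, at the counting floor, thus had more CG pairs than Malat1 and Lncenc1, the most abundant members. On either strand, GGGCGG was present in the promoters of Oip5os1, Miat, Tug1, Tunar and Firre (35.7% of all promoters), and CCAAT in those of Oip5os1 and Lncenc1 (37.4% of all). None of the 7 members had TATAAA (13.6% of all promoters), ATGCAAAT (1.74%) or TTCCNGGAA (1.15%) in this window.

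How far the members varied between replicates was tested with edgeR's goodness-of-fit test, which compares each gene's spread with that of genes of similar abundance. Of 12577 genes tested, 232 (1.84%) varied beyond the trend at a Benjamini-Hochberg adjusted p under 0.05, and 875 at an unadjusted p under 0.05. Of the 8 members, 7 were tested and Miat did not pass the filter on low counts. By edgeR, 0 of the 7 were called, and 0 had an unadjusted p under 0.05. With DESeq2's size factors in the same test, 0 were called as well. Neat1 had the lowest p of the members, 0.0598 (adjusted p = 0.786 by edgeR), and normalized CPM (scaled by TMM) of 422, 378 and 239. A call that is missed with 3 replicates does not show that Neat1 was stable.

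**Figure D4:**
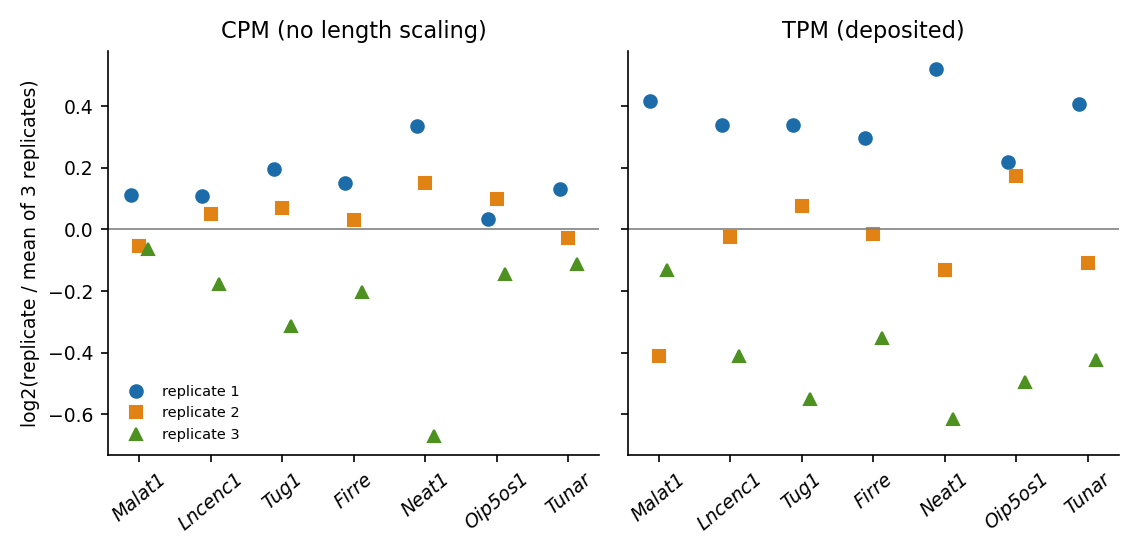
Log2 ratio of each replicate to the mean of the 3 replicates for 7 members (Miat, at the floor, is left out), in CPM on the left and deposited TPM on the right. In TPM replicate 1 is the highest for all 7, and in CPM only Neat1 has a replicate more than 0.6 below its mean.

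Replicate 3 was set against the mean of replicates 1 and 2 on the log2 scale after TMM scaling, because long genes were lower in it. The background was the 8300 genes that averaged 100 counts or more, of which 48.3% were lower in replicate 3, with a median of 0.01. Miat and Tunar averaged fewer counts. Of the other 6 members, 5 were lower in replicate 3, with a median of -0.10. Over all 8 members, with Miat at 3 to 5 counts included, the median was -0.06. Neat1 was the lowest member at -0.74. The 200 genes nearest to it in length (7197 to 19102 nt) had a median of -0.31, and 43 of them were lower than Neat1. With offsets corrected for length in edgeR's test, the p of Neat1 was 0.411. Oip5os1, although long, was at -0.03 with a median of -0.22 in genes of its length. Tug1 was at -0.27, Firre at -0.12, Lncenc1 at -0.08, Tunar at 0.02 and Malat1 at 0.08. In TPM the median of the 6 members was -0.63 and that of the 8300 genes -0.45, so that the lower TPM of replicate 3 was shared by most genes. Whether length has a part in the low value of Neat1 was not tested beyond these values.

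**Figure D5:**
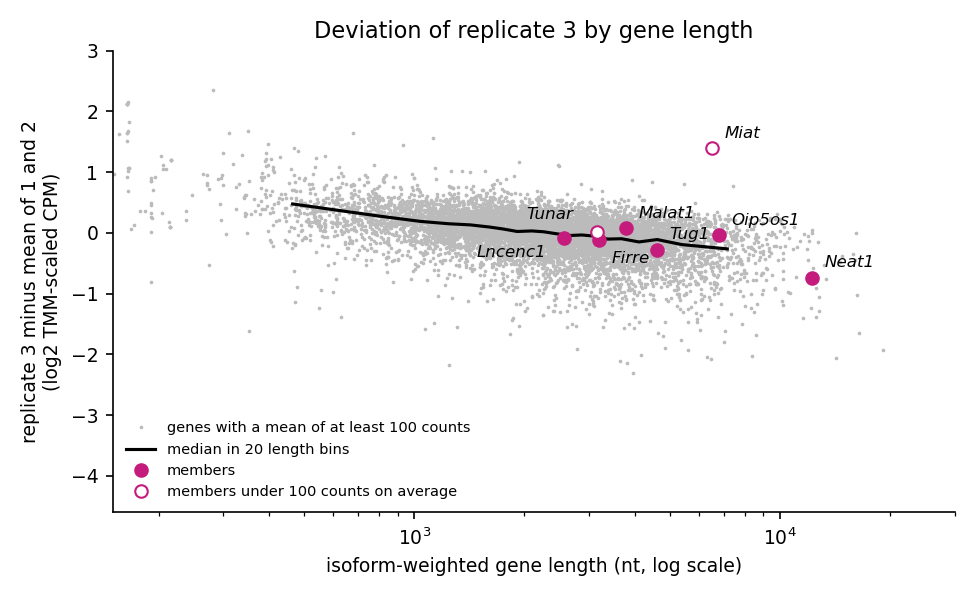
Log2 difference of replicate 3 from the mean of replicates 1 and 2 (TMM-scaled CPM) against isoform-weighted gene length (nt, log axis), with 8240 of the 8300 genes in grey, the median in 20 length bins as a line and the members as points, open where the mean was under 100 counts. The line falls with length, Neat1 lies at -0.74 below the members of moderate length, and the place of Miat rests on 3 to 5 counts.

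Other named lncRNAs put these levels in context. Of 43 names listed, 40 were found in the annotation, and 22 of these reached a mean of 1 TPM, while 4 had no counts. Chaserr, Norad and Pint were not found under those names, and a gene can be listed under another. Rian, from the imprinted Dlk1-Dio3 region, had 189 ± 43.3 TPM, between Malat1 and Lncenc1, and Meg3 of the same region had 31.5 ± 9.88. The snoRNA hosts Snhg1 and Gas5 had 91.8 ± 26.3 and 44.1 ± 7.76 TPM. The 5 Platr genes listed, named for their link to pluripotency, ranged from 0.877 ± 0.314 TPM for Platr20 to 21.4 ± 4.79 for Platr14, with Platr27 at 1.32 ± 0.318, Platr4 at 4.59 ± 1.32 and Platr10 at 18.2 ± 5.01. The 4 without counts were Hottip, Fendrr, Rmst and Pantr2. Other lncRNAs described in later development did have counts, such as Bvht (2.24 ± 0.391 TPM) and Sox2ot (0.523 ± 0.164 TPM).

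By level alone, the lincRNA genes closest to each member over the 3 replicates, by distance in log2(TPM + 1), were found for all 8. Nearest to Neat1 were 1700001L05Rik (distance 0.32) and Gm27000 (0.33), and to Oip5os1 2900097C17Rik (0.21) and Snhg20 (0.23). Nearest to Firre were 5430416N02Rik (0.28) and Snhg6 (0.49), and to Tug1 Bc1 (0.29) and Platr10 (0.53). Lncenc1 had Gm10076 at a distance of 0.96, and Malat1 had Gm23925 at 0.85. Gm23925 reached a similar TPM from only 139, 80.2 and 75.8 counts, far fewer than Malat1 had. Tunar was nearest to E130018N17Rik (0.07), and for Miat the nearest genes were also at the floor.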

How the data were processed

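RNA-seq of 3 E14 replicates was analysed from gene tables, grouped by sample title. The submitters' processing notes name STAR, RSEM and mm10, with no versions; the annotation release and strand setting are not given in the sources used here. Per the file headers, the authors deposited the estimated count of each gene (expected count) without normalization, its TPM and FPKM (not used), with length and effective length. The 8 members and all gene lists were chosen with earlier results of these data known. Genes named in the text are the members, the listed genes, the neighbours and overlapping genes, and the 2 lincRNA genes closest in level. Retreg3 was named after its motif was seen.

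Names, types, isoforms and GRCm38 coordinates came from GENCODE release M21, which matched 55141 of 55487 gene IDs. The deposited length equalled the annotated one within 0.5 nt in 33993 of 34056 single-isoform genes. CPM is the count over the library total. Counts were rounded for edgeR 4.0.16 in R 4.3.3 (filterByExpr, TMM, trended dispersion, intercept only); DESeq2 1.42.0 gave alternative size factors. The test was tried on simulated data. Deviations of replicate 3 used a prior count of 0.5. Other steps used Python 3.11.15, pandas 2.3.3, scipy 1.17.1 and biopython 1.88. The 95% Wilson intervals and the floor of 3 counts hold only counting error, because PCR can copy 1 molecule many times. No comparison between groups was possible. Alternatives changed normalization, filters, length scaling, thresholds and replicates used.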

Additional observations from a re-analysis of the deposited data

How the results depend on the processing

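Of 90 alternatives over 15 results, 73 stayed within 1 SD over the replicates or, for numbers of genes, within 1.5 times. For the median deviation of replicate 3 the yardstick was instead the SD over the 8 members, 0.61. This is wide, so that even a change of sign near 0 stayed within it. Beyond these spreads 0 alternatives changed sign, but most of the results cannot fall below 0 and so could not do so. The log2 ratio of Malat1 to Neat1 was 5.002 in TPM and 3.28 in CPM, a scale that leaves out length. The number of genes varying beyond the trend in edgeR's test was 232 in the main setting and 134 at an adjusted p under 0.01. It was 89, 63 and 93 without replicate 1, 2 and 3, and the cause of this drop was not tested. No member was called under any of these settings, although without the filter on low counts Neat1 had an unadjusted p of 0.0464 in edgeR (its adjusted p from edgeR ranged from 0.786 to 0.999977 over the settings). Dropping short genes (effective length below 100 nt) from the TPM total raised the mean TPM of every member, Malat1 from 325 to 878 and Tunar from 0.603 to 1.64, so that 7 members reached 1 TPM in place of 6. Rescaling to the longest isoform, chosen after seeing the data, moved the means of Malat1, Neat1, Tug1 and Firre by more than their SD. Leaving out 1 replicate gave a share of counts held by the members of 0.454 to 0.498%, a log2 Malat1 to Neat1 ratio of 4.78 to 5.16 and a mean Neat1 length of 11295 to 13332 nt. The median deviation of replicate 3 over all 8 members, -0.06, was -0.10 over the 6 with a mean of at least 100 counts (chosen after seeing the data). Over all 8 it was -0.56 in log2 TPM, -0.23 with library totals and 0.01 after subtracting genes of similar length. No paired analysis was possible because only the RNA-seq group has tables here, and replicate numbers pair samples only across groups. Depth limits Miat (3 to 5 counts) and Tunar (27 to 63 counts). Gene-level tables limit the isoform shares to ranges.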
